A study of Mus musculus with 12 samples.

Results

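The miR-29 family was followed through its 3 mature 3p microRNAs (miRNAs), miR-29a-3p, miR-29b-3p and miR-29c-3p (rows mmu-mir-29a-3p, mmu-mir-29b-3p and mmu-mir-29c-3p), which are 3 of the 1251 miRNA rows measured. They were taken by name, under a rule that uses no measured level. All 3 were above the detection floor of the table in all 12 libraries. Small RNA was sequenced from dorsal skin and from cutaneous squamous cell carcinoma (SCC) of C57Bl6 mice. The mice were wild type (WT) or homozygous knockouts (KO, TAp63-/-) for TAp63, the form of the p53-family transcription factor p63 with an N-terminal transactivation domain. WT skin (n = 3) and KO skin (n = 3) came from untreated mice aged 4 weeks. WT SCC (n = 2) and KO SCC (n = 4) came from mice aged over 35 weeks that were chronically exposed to ultraviolet radiation (UVR), at 2.5 kJ/m2 given 3 times weekly. Tumour, age and UVR therefore cannot be told apart in a comparison of SCC with skin, and untreated older skin was not analysed here. All skin sample titles begin with Su and all SCC titles with LM. Whatever these letters stand for cannot be told apart from tissue either. The labels do not say how the knockout allele was made or which cells lack it, and do not state that each library is a separate mouse, so p-values measure the spread between these libraries, which may be partly technical.

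A miRNA guides Argonaute proteins to messenger RNAs, mainly by pairing of its seed, the bases near its 5′ end, with sites in the 3′ untranslated region (UTR). The miR-29 family is known for repressing messenger RNAs of the extracellular matrix, among them fibrillar collagens and elastin, and it is often low in fibrotic tissue, where transforming growth factor beta lowers it. Other known targets are the DNA methyltransferases Dnmt3a and Dnmt3b and the survival protein Mcl1. Collagen RNA and protein were not measured in the table, so the family's name as collagen-repressing rests on background only.

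The 3 mature sequences are shown because the members differ at few bases, with the seed (bases 2 to 8, counted from 1 at the 5′ end) in capitals. They are RefSeq entries on GRCm38.p6, which is the build mm10 that the submitters' processing notes name.
miR-29a-3p: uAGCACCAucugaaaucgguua
miR-29b-3p: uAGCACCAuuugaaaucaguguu
miR-29c-3p: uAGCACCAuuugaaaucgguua
All 3 share the seed AGCACCA, and of 1679 mature mouse miRNAs in that sequence table only these 3 carry it. miR-29a-3p and miR-29c-3p, both of 22 bases, differ at 1 base, the substitution C10U from miR-29a-3p to miR-29c-3p. From miR-29c-3p to miR-29b-3p, which has 23 bases, the substitutions are G18A, U21G and A22U. How many mismatches the counting allowed is not given in the sources used here, and how reads were split between miR-29a-3p and miR-29c-3p is therefore uncertain.

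The family comes from 4 hairpins in 2 places in the genome, shown with both mature arms in capitals to make plain that miR-29b-3p has 2 sources.
Mir29a: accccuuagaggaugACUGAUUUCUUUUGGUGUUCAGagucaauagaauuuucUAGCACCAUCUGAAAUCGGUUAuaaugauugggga
Mir29b-1: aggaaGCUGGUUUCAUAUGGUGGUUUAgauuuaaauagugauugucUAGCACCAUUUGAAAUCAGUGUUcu
Mir29b-2: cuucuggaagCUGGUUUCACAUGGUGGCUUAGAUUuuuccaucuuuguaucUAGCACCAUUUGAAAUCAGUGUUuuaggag
Mir29c: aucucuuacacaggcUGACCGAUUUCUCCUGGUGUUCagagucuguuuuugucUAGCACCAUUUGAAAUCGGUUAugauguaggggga
Mir29a (chr6:31062660-31062747) and Mir29b-1 (chr6:31063023-31063093) lie on the minus strand with 275 bases between them. In GENCODE M21, Mir29a overlaps no other gene, and Mir29b-1 shares 2 bases with an exon of the long noncoding RNA Gm27019. Mir29b-2 (chr1:195037040-195037120) and Mir29c (chr1:195037547-195037634) lie on the plus strand with 426 bases between them. Both are inside an exon of the noncoding RNA A330023F24Rik on the same strand, and on the opposite strand they overlap a UTR exon of Cd46. The level of miR-29b-3p cannot be divided between Mir29b-1 and Mir29b-2.

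Sites in matrix messenger RNAs are shown because their letters are complementary to the shared seed. The 8-letter match TGGTGCTA, which contains the 7-letter match TGGTGCT, was looked for on the sense strand of the longest annotated 3′ UTR of each gene. Of 9 matrix genes listed for this purpose (5 fibrillar collagens, 2 basement membrane collagens, elastin and fibrillin), 7 held the 8-letter match, against 2.85% of 20968 protein-coding genes with an annotated 3′ UTR in GENCODE M21. The 7-letter match was in 11 of 12 genes when Dnmt3a, Dnmt3b and Mcl1 were added, against 13% of all. The median 3′ UTR length over all was 954 bases. Among 3′ UTRs at least as long as that of each gene and cut to its length, the 7-letter share differed by gene. It ran from 9.02% for Col1a2 (882 bases) to 44.1% for Dnmt3a (6696 bases). The 12 genes were listed by name as known or likely targets, so the count is a description. The sites in the 2 major fibrillar collagens of skin and in elastin are shown on mm10, with the 8-letter match in capitals.
Col1a1 (chr11:94952524-94952545, plus strand): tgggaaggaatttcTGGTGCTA
Col3a1 (chr1:45348968-45348989, plus strand): tcaaaatgtctcaaTGGTGCTA
Eln (chr5:134703736-134703757, minus strand): gacctcatcaacgtTGGTGCTA (the first of 2 such matches)
Among 3′ UTRs at least as long, cut to the same length from their start, 2.68% held the 8-letter match at the length of Col1a1 (1423 bases), 1.84% at that of Col3a1 (959 bases) and 2.12% at that of Eln (1188 bases). Col1a2, the other chain of type I collagen, held neither match and was the 1 gene of the 12 without a 7-letter match, and Col4a2 held only the 7-letter match. A match is not evidence of binding in these samples.

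Levels are the authors' log2 values after normalization between libraries, and none is below log2 of 10, the floor. Depth is unknown, and the number of miRNAs above the floor was 370 to 465 in skin and 402 to 545 in SCC. Skin and SCC lay apart along the leading principal component (55.3% of variance), with WT SCC replicate 2 nearest to skin (a score of 8.60, against 14.03 to 18.81 in the other SCC libraries and -19.82 to -12.34 in skin). No 2 libraries held the same values. All 6 keratinocyte miRNAs of a marker list, miR-205-5p and miR-203-3p among them, were above the floor in at least 1 library of each group.

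miR-29a-3p was the abundant member, at rank 42 to 68 of all rows in a library. Its log2 level was 13.30, 13.48 and 13.70 in WT skin and 13.79, 13.48 and 13.01 in KO skin. In SCC it was 14.32 and 13.79 in WT mice and 13.13, 13.99, 12.73 and 13.27 in KO mice. Both WT tumours lay above the 3 WT skin libraries, and the KO tumours lay on both sides of KO skin. In descending order the means were 14.05 ± 0.37 (SD, n = 2) in WT SCC, 13.50 ± 0.20 (SD, n = 3) in WT skin, 13.43 ± 0.39 (SD, n = 3) in KO skin and 13.28 ± 0.53 (SD, n = 4) in KO SCC. Only WT SCC and WT skin did not overlap in range, and the highest level in KO skin equalled the lowest in WT SCC. With 2 libraries against 3, ranges can readily lie apart by chance. How many of all tested miRNAs lay apart in this way was not counted.

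miR-29b-3p, whose distinct 3′ end is known as a nuclear import element in human cells, was at rank 134 to 220. Its log2 level was 8.65, 9.04 and 8.74 in WT skin and 8.99, 8.86 and 9.09 in KO skin. In SCC it was 10.07 and 9.06 in WT mice and 9.06, 9.82, 7.74 and 8.83 in KO mice. Skin libraries lay close together and tumours were widely spread, with an SD of 0.86 (n = 4) in KO SCC against 0.11 (n = 3) in KO skin. The order of the means was WT SCC (9.57), KO skin (8.98), KO SCC (8.86) and WT skin (8.81). Only WT SCC and WT skin did not overlap in range, with the same limit as for miR-29a-3p.

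miR-29c-3p, at rank 141 to 236, had lower means in SCC than in skin. Its log2 level was 9.26, 9.31 and 9.48 in WT skin and 9.90, 9.04 and 8.96 in KO skin. In SCC it was 8.66 and 9.01 in WT mice and 8.22, 9.60, 7.41 and 8.26 in KO mice. Both WT tumours lay below the 3 WT skin libraries, and 3 of the 4 KO tumours lay below the 3 KO skin libraries. KO SCC replicate 2 was the exception, within the range of KO skin. The means were 9.35 ± 0.12 (SD, n = 3) in WT skin, 9.30 ± 0.52 (SD, n = 3) in KO skin, 8.84 ± 0.25 (SD, n = 2) in WT SCC and 8.37 ± 0.91 (SD, n = 4) in KO SCC. Each group overlapped in range with the next in this order, and only WT SCC and WT skin did not overlap, with the same limit as for miR-29a-3p. KO SCC replicate 3 had the lowest level of all 3 members among the 12 libraries and also the most miRNAs above the floor (545); the part of the latter in the former was not tested.

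**Figure D1:**
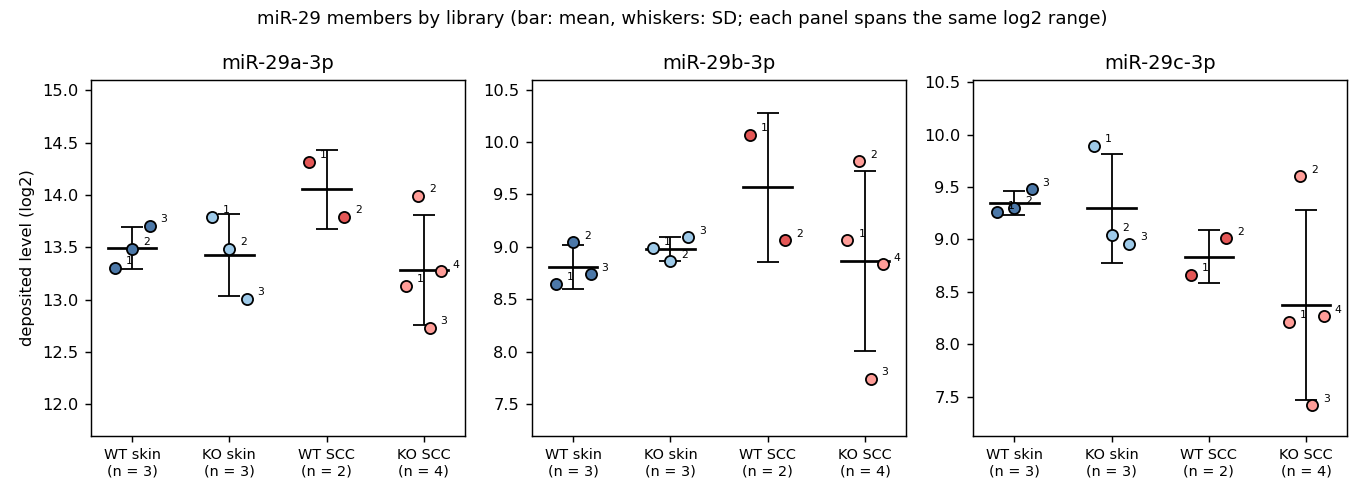
Log2 level of each miR-29 member in every library (vertical axis) by genotype and tissue (horizontal axis). Points are libraries numbered by replicate, bars are means and whiskers are SD. miR-29c-3p is at 8.96 to 9.90 in skin and 7.41 to 9.60 in SCC, while the ranges of miR-29a-3p and miR-29b-3p in SCC enclose those in skin.

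Levels of SCC and skin were compared to ask how the family differs between tumour and untreated skin. limma was fitted to 544 miRNAs, those that exceeded the floor in 2 or more libraries, and an adjusted p (Benjamini-Hochberg) under 0.05 was called. Averaged over genotypes, 41.9% of tested miRNAs were called (20.4% higher and 21.5% lower in SCC), and 0 of the 3 miR-29 members. In log2 units, SCC minus skin was 0.20 ± 0.24 (SE, 95% interval -0.33 to 0.74, adjusted p = 0.528) for miR-29a-3p. It was 0.32 ± 0.33 (SE, -0.41 to 1.05, adjusted p = 0.472) for miR-29b-3p. For miR-29c-3p it was -0.72 ± 0.34 (SE, -1.47 to 0.04, adjusted p = 0.124), the largest of the 3, with 4 of 6 tumours below all 6 skin libraries. The median over all tested miRNAs was 0.04. Leaving out KO SCC replicate 2 gave -0.92 for miR-29c-3p (adjusted p = 0.0123 with limma), so this 1 library decides whether it is called.

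Within WT mice, 18.2% of tested miRNAs were called (8.82% higher and 9.38% lower in SCC) and none of the members. SCC minus skin was 0.56 ± 0.37 (SE) for miR-29a-3p, 0.76 ± 0.51 for miR-29b-3p and -0.51 ± 0.53 for miR-29c-3p, with limma adjusted p-values of 0.345, 0.346 and 0.573. Without WT SCC replicate 1 the 3 values were 0.29, 0.26 and -0.34, and without WT SCC replicate 2 they were 0.82, 1.26 and -0.69. Within KO mice, 34.2% were called (16.0% higher and 18.2% lower in SCC) and again none of the members. There the values were -0.15 ± 0.31 (SE), -0.12 ± 0.43 and -0.92 ± 0.44, with limma adjusted p-values of 0.761, 0.867 and 0.128. Leaving out KO SCC replicate 2 gave -1.33 for miR-29c-3p in KO mice (adjusted p = 0.0105 with limma). The WT count of all calls fell from 99 to 32 without WT SCC replicate 1, and was 61 and 65 without WT skin replicates 2 and 1.

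**Figure D2:**
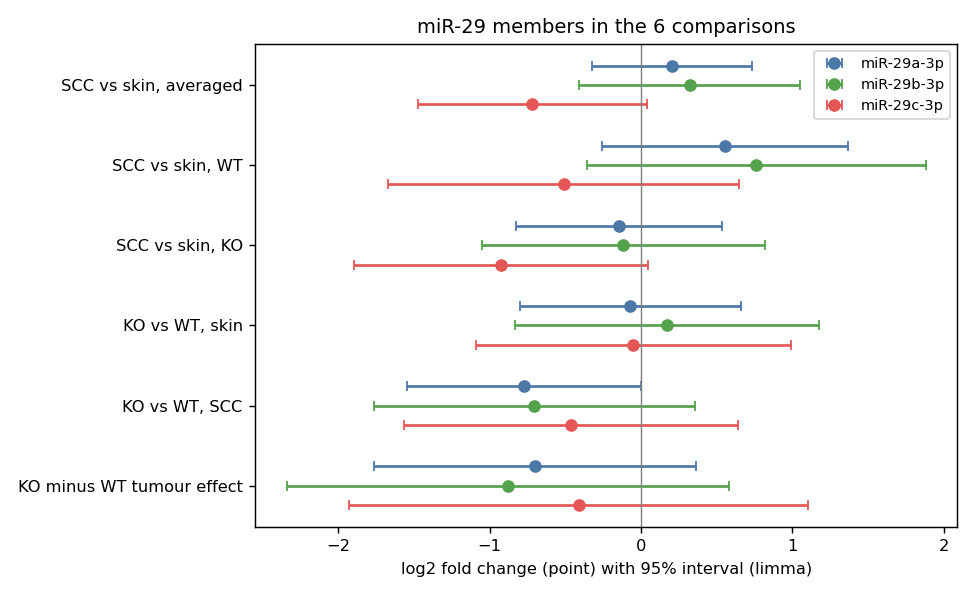
Log2 fold change (horizontal axis, point) with its 95% interval (line) from limma for each member in the 6 comparisons (vertical axis). All 18 estimates have adjusted p-values above 0.05, and miR-29c-3p is lowest of the 3 members in every comparison of SCC with skin.

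The members were also compared within each library. A constant factor per library would leave such a difference as it is, but the values look quantile normalized, which need not, and its part in these differences was not tested. miR-29c-3p was lower against both other members in SCC than in skin. Its log2 level minus that of miR-29a-3p was -4.04, -4.18 and -4.23 in WT skin and -3.89, -4.44 and -4.05 in KO skin. In SCC the difference was -5.66 and -4.78 in WT mice and -4.92, -4.39, -5.32 and -5.01 in KO mice. Of 6 tumours, 5 lay below all 6 skin libraries, and KO SCC replicate 2 lay within their range. Put on the linear scale, the mean log2 differences make miR-29a-3p 17.6 times miR-29c-3p in skin and 32.2 times in SCC. How well each sequence was captured in the libraries was not tested.

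The difference between miR-29c-3p and miR-29b-3p, whose hairpins Mir29b-2 and Mir29c are neighbours, was also lower in SCC. It was 0.61, 0.26 and 0.74 in WT skin and 0.91, 0.18 and -0.13 in KO skin, so miR-29c-3p was the higher in 5 of 6 skin libraries. In SCC it was -1.41 and -0.05 in WT mice and -0.85, -0.21, -0.32 and -0.57 in KO mice, so miR-29b-3p was the higher in all 6 tumours. WT SCC replicate 2 was the 1 tumour within the range of skin.

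Tissue labels were permuted within genotype (an exact permutation test with 350 arrangements, smallest possible p = 0.00286), with adjustment over the 3 pairs of members. The change from skin to SCC was -0.92 ± 0.26 (log2, SE), or 1.89-fold, for miR-29c-3p minus miR-29a-3p (two-sided exact permutation p = 0.00571, adjusted 0.00857). It was -1.04 ± 0.39 (SE), or 2.06-fold, for miR-29c-3p minus miR-29b-3p (two-sided exact permutation p = 0.00286, adjusted 0.00857). The change of miR-29a-3p minus miR-29b-3p was -0.12 ± 0.22 (SE), with a two-sided exact permutation p = 0.571 before and after adjustment. By genotype, the first change was -1.07 in WT and -0.78 in KO mice, and the second -1.27 in WT and -0.81 in KO mice, which was not tested within 1 genotype. Without any 1 library, the adjusted permutation p-values of the first and second changes stayed between 0.0075 and 0.0214. Both changes were smallest without WT SCC replicate 1, at -0.70 each.

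**Figure D3:**
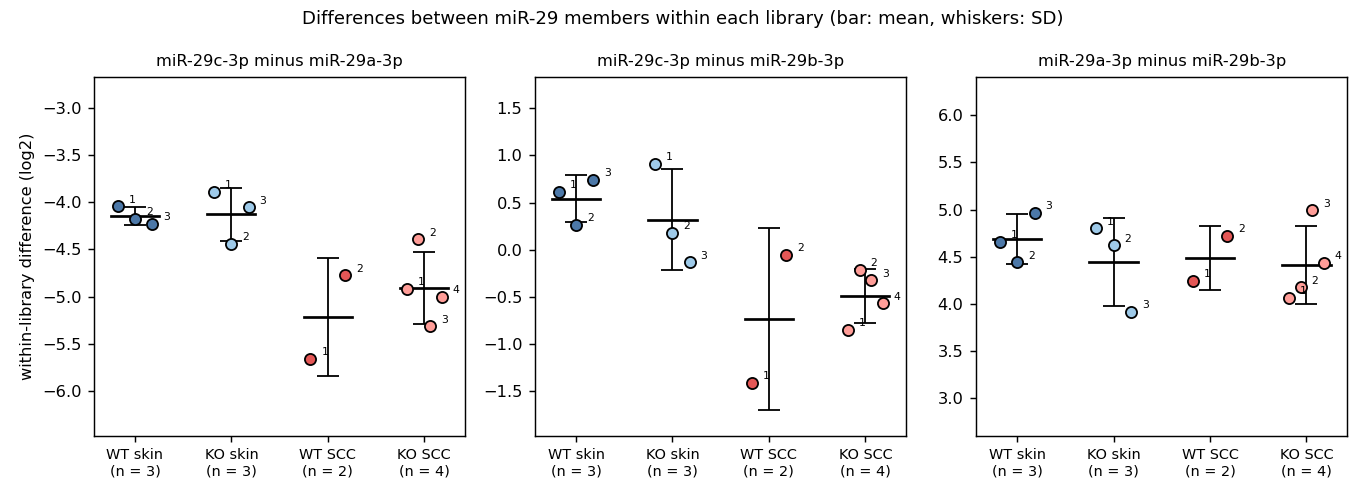
Difference in log2 level between 2 members within each library (vertical axis) by genotype and tissue (horizontal axis). Points are libraries numbered by replicate, bars are means and whiskers are SD. miR-29c-3p minus miR-29a-3p is -4.44 to -3.89 in skin and -5.66 to -4.39 in SCC, and miR-29a-3p minus miR-29b-3p covers similar ranges in both tissues.

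As a share of the linear sum of the 3 members, miR-29a-3p made up 88.8% to 92.1% in skin and 90.7% to 94.6% in SCC. miR-29c-3p made up 4.24% to 6.10% in skin and 1.85% to 4.32% in SCC. The share of miR-29b-3p was 2.94% to 5.87% in skin and 2.97% to 5.46% in SCC. Most of the family's total was thus miR-29a-3p in both tissues. That total was 0.208% ± 0.037 (SD, n = 6) of the linear total of a library in skin and 0.227% ± 0.092 (SD, n = 6) in SCC. It was 0.361% and 0.251% in the 2 WT tumours and 0.118% to 0.297% in the KO tumours, so the ranges of tumours and skin (0.153% to 0.257%) overlapped.

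KO and WT libraries were compared to ask whether loss of TAp63 goes with a different family level. In skin, limma called 0% of the tested miRNAs (0 of 544, with 31 at an unadjusted p under 0.05), and the members differed by -0.07 ± 0.33 (log2, SE) for miR-29a-3p, 0.17 ± 0.46 for miR-29b-3p and -0.05 ± 0.47 for miR-29c-3p, with adjusted p = 1 for each. The 95% intervals ran from -0.80 to 0.66, -0.83 to 1.17 and -1.09 to 0.99. With library quality weights limma called 22 miRNAs in skin, none of them a miR-29 member. In SCC, 0.184% of tested miRNAs were called (1 of 544). KO minus WT was -0.77 ± 0.35 (SE, -1.54 to 0.00, limma adjusted p = 0.538) for miR-29a-3p. It was -0.71 ± 0.48 (SE, adjusted p = 0.711 with limma) for miR-29b-3p and -0.46 ± 0.50 (SE, adjusted p = 0.808 with limma) for miR-29c-3p. Without WT SCC replicate 1 the 3 values were -0.51, -0.20 and -0.64, and without KO SCC replicate 3 they were -0.59, -0.33 and -0.14. For miR-29a-3p, 3 of the 4 KO tumours lay below both WT tumours, and KO SCC replicate 2 lay between them.

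The tumour effect itself was compared between genotypes by the interaction, the KO effect minus the WT effect, for which limma called 0% of miRNAs (0 of 544, with 41 at an unadjusted p under 0.05). It was -0.70 ± 0.48 (log2, SE, adjusted p = 0.788) for miR-29a-3p, -0.88 ± 0.67 (SE, adjusted p = 0.818) for miR-29b-3p and -0.41 ± 0.69 (SE, adjusted p = 0.888) for miR-29c-3p. Intervals reached -1.76, -2.34 and -1.93 on the negative side, so the estimates do not show that the genotypes act alike. Over the 6 comparisons and 3 members, 0 of 18 limma tests had an unadjusted p under 0.05. The lowest was 0.05025 with limma, for miR-29a-3p between KO and WT SCC. The 18 tests share the same 4 group means. Of all 544 miRNAs, those under 0.05 numbered 257 for SCC against skin averaged over genotypes, 167 in WT and 236 in KO mice. Between KO and WT SCC they numbered 46. With WT SCC replicate 2 left out, 13 miRNAs were called between KO and WT SCC and 11 for the interaction, none of them a miR-29 member.

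miR-29a-3p and miR-29b-3p varied together among tumours. Over the 6 SCC libraries, Pearson's r between miR-29a-3p and miR-29b-3p was 0.92 (exact permutation p = 0.00556, adjusted 0.0334 over 6 relations) and Spearman's rho was 0.90 (exact permutation p = 0.0278, adjusted 0.0833). Without the 2 libraries farthest from the median of miR-29a-3p, r was 0.76. Over the 6 skin libraries the same r was -0.22 (exact permutation p = 0.644, adjusted 0.773) and rho was -0.20 (exact permutation p = 0.722, adjusted 0.722), with r = 0.15 without the 2 farthest libraries. The skin levels of miR-29b-3p spanned 0.44 log2 units, and the part of this narrow span in the skin r was not tested. Whether r differs between skin and SCC was not tested.

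miR-29c-3p and miR-29a-3p had an r of 0.83 in skin (exact permutation p = 0.0417, adjusted 0.0833) and 0.81 in SCC (exact permutation p = 0.0417, adjusted 0.0833). How reads were split between these members is uncertain, and its part in both values was not tested. The rho of this pair was 0.90 in skin (exact permutation p = 0.0278, adjusted 0.0833) and 0.83 in SCC (exact permutation p = 0.0583, adjusted 0.117). Without the 2 libraries farthest from the median of miR-29c-3p in each tissue, r was 0.54 in skin and 0.69 in SCC. For miR-29c-3p and miR-29b-3p, r was -0.08 in skin (exact permutation p = 0.889, adjusted 0.889) and 0.80 in SCC (exact permutation p = 0.0639, adjusted 0.0958). The rho was -0.26 in skin (exact permutation p = 0.658, adjusted 0.722) and 0.70 in SCC (exact permutation p = 0.139, adjusted 0.208). Without the same 2 libraries r was -0.19 in skin and 0.30 in SCC. The value in SCC was thus lower without them, and few libraries are left to judge it. Each set of 6 mixes WT and KO libraries, and no genotype alone had 6 libraries of 1 tissue.

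**Figure D4:**
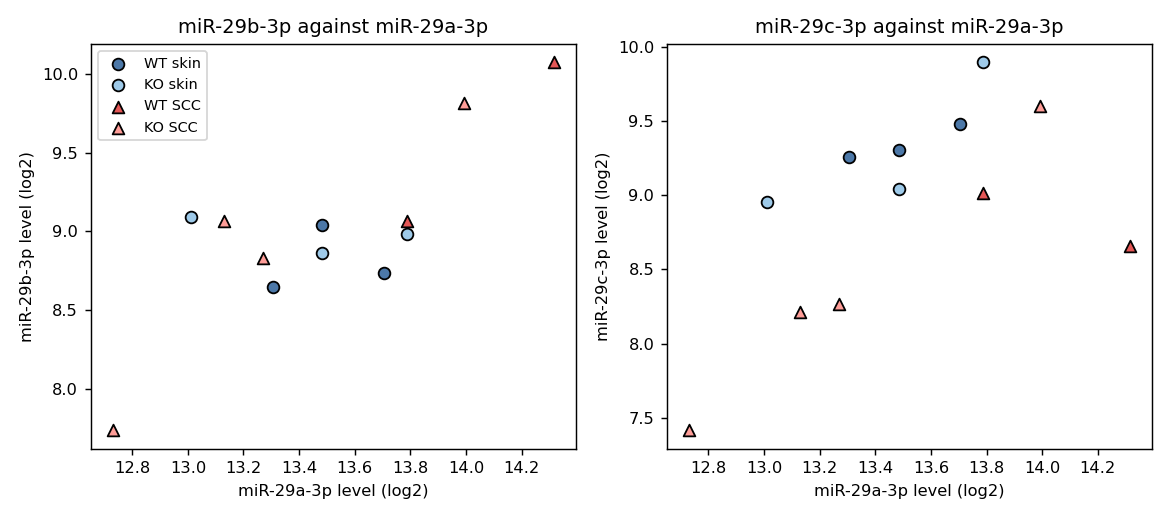
Log2 level of miR-29b-3p (left) and miR-29c-3p (right) against that of miR-29a-3p, 1 point per library, circles for skin and triangles for SCC. Tumours lie along a rising line for miR-29b-3p, and for miR-29c-3p the 3 tumours whose miR-29a-3p level is within the range of skin (13.13, 13.27 and 13.79) lie below skin libraries of similar miR-29a-3p level.

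The miRNAs outside the family whose levels ran most like each member over the 12 libraries are given as a description. For miR-29a-3p they were miR-221-5p (r = 0.82), miR-187-3p (0.80), miR-222-3p (0.74), miR-129-5p (0.73, above the floor in 3 libraries) and miR-652-3p (0.71). For miR-29b-3p they were miR-221-3p (0.80), miR-187-3p (0.78), miR-221-5p (0.76), miR-652-3p (0.73) and miR-129-5p (0.71). Of the 5 in each list, miR-221-5p, miR-187-3p, miR-652-3p and miR-129-5p stood in both. For miR-29c-3p they were miR-24-2-5p (0.88), miR-181a-5p (0.87), miR-676-5p (0.86), miR-181b-5p (0.84) and miR-139-5p (0.83), with none of the other members' miRNAs among them. Over the same libraries, r was 0.80 between miR-29a-3p and miR-29b-3p, 0.60 between miR-29a-3p and miR-29c-3p and 0.45 between miR-29b-3p and miR-29c-3p. Skin and SCC libraries are pooled in these values, so a shared tissue difference contributes to each.

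The opposite (5p) arms, which are cut from the same hairpins and usually degraded, were near the floor. miR-29a-5p was above it in all 12 libraries, at 4.48 to 5.63 in skin and 3.59 to 5.99 in SCC (log2), and SCC minus skin was 0.19 ± 0.45 (SE, adjusted p = 0.744 with limma). miR-29c-5p was above the floor in 8 libraries, 4 of 6 in skin and 4 of 6 in SCC, and its change was 0.03 ± 0.43 (SE, adjusted p = 0.960 with limma). The arms specific to each miR-29b hairpin were above the floor in fewer libraries. miR-29b-2-5p was above the floor in 3 skin libraries and 1 tumour, and miR-29b-1-5p was at the floor in all 12. Values at the floor understate any change, so these arms do not show from which hairpin miR-29b-3p came, nor whether the lower miR-29c-3p in SCC was shared by its other arm.

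Of 24 other miRNAs linked to matrix and fibrosis, 23 were tested. Averaged over genotypes, 3 rose in SCC, 7 fell and 13 were not called, with a median of -0.47 (log2) against 0.04 over all tested miRNAs. Over all tested miRNAs 20.4% rose and 21.5% fell, so the share of the list that was called was near that of all miRNAs. The rises were of both arms of miR-21a, which is known as a fibrosis-promoting miRNA, at 5.57 ± 0.44 (SE) for miR-21a-3p and 2.91 ± 0.29 for miR-21a-5p. The other rise was of miR-132-3p (0.80 ± 0.28, SE, adjusted p = 0.0413 with limma), which was named after its value was seen. The 4 called decreases with the smallest p were of miR-199b-5p (-1.55 ± 0.23, SE), miR-133a-3p (-2.61 ± 0.41), miR-30a-5p (-1.22 ± 0.19) and miR-101a-3p (-0.86 ± 0.18). The adjusted p-values of the miR-21a arms and these 4 were between 8.0e-06 and 0.00265 with limma. In KO against WT skin, KO against WT SCC and the interaction, limma called 0, 1 and 0 of all 544 tested miRNAs, and none of the 23.

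Markers of other cell types are given beside these results, and 41.9% of all tested miRNAs were called in the same comparison (20.4% higher and 21.5% lower in SCC). In whole tissue fewer cells of a type and less RNA per cell cannot be told apart. Of 5 fibroblast miRNAs, 4 of which are also on the matrix list, 3 fell and none rose, and their summed linear level was 46807 to 67258 in WT skin, 51325 to 69059 in KO skin, 44630 to 55420 in WT SCC and 38812 to 68181 in KO SCC. Of 5 striated muscle miRNAs, 4 fell, with sums of 73106 to 79738 in WT skin, 66537 to 90052 in KO skin, 5914 to 31462 in WT SCC and 4750 to 16069 in KO SCC. The other muscle miRNA, miR-499-5p, was at the floor in all skin libraries and was not called averaged over genotypes (a fitted difference from the floor of 1.20 ± 0.55, SE, adjusted p = 0.110 with limma). In KO mice it was called higher in SCC (adjusted p = 0.04998 with limma). Both melanocyte miRNAs fell, from sums of 4628 to 6160 in WT skin and 2326 to 6496 in KO skin to 349 to 1703 in WT SCC and 88.4 to 193 in KO SCC. No fibroblast or melanocyte marker was at the floor throughout a group. Of the other lists, 1 of 3 smooth muscle and pericyte miRNAs fell. A rise was called for 2 of 4 tested leukocyte, 2 of 4 red cell and 1 of 2 endothelial miRNAs. The summed linear level of the 4 red cell miRNAs overlapped between tissues. It was 37337 to 55323 in WT skin, 35169 to 75009 in KO skin, 25442 to 60028 in WT SCC and 17148 to 98152 in KO SCC. Of 6 keratinocyte miRNAs 1 rose and 2 fell. These counts, like those of the fibroblast and melanocyte lists, are too small to set apart from the share of all miRNAs called. The part of these differences in the lower miR-29c-3p level relative to the other members was not tested.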

How the data were processed

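The authors deposited 1 table of log2 values for 1251 miRNAs in 12 libraries, each column matched by name to 1 sample title. The submitters' processing notes name the build mm10. For the aligner, the counting rule and the miRBase version, nothing is given in the sources used here. The values show that the deposited log2 levels share a floor at a linear value of 10 and nearly equal totals (6065014 to 6065621), as after quantile normalization, so read depth is unknown and counting error cannot be computed. The deposited log2 levels of 544 miRNAs that exceeded the floor in 2 or more libraries were fitted with limma 3.58.1 under R 4.3.3, with 4 group means and trended, robust moderation (8 residual degrees of freedom), and checked on simulated tables. P-values were adjusted by Benjamini-Hochberg within each comparison. Differences between members were tested by exact permutation of tissue labels within genotype. Named miRNAs are the miR-29 rows, the 5 most correlated with each member, and up to 6 called members of the matrix list with the smallest p. Members and lists were chosen with earlier results of these data known. The 12 possible target genes were listed after the data were seen. Replicates are numbered in accession order.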

Additional observations from a re-analysis of the deposited data

Results flagged for a closer look

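Among 10 sets of 4 KO SCC values, 2 held a library far from the other 3, both times KO SCC replicate 3. For values that vary, chance alone marks about 1 such set in 20. miR-29a-5p was at 3.59 (log2) in that library, against 5.67 to 5.99 in the other 3. miR-29b-2-5p was at 4.81 there and at the floor in the other 3 KO tumours, so any value above the floor would have stood apart and the chance rate does not apply to it.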

How the results depend on the processing

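Besides leaving out libraries, the alternatives were other filters on low values, added pseudocounts, scalings, moderation, library weights and fits of the compared groups alone, and under these no miR-29 member was called (lowest limma adjusted p = 0.103). Median-ratio scaling moved the averaged SCC median of all miRNAs from 0.04 to 0.16 (log2) and turned no member's direction there. Leaving out 1 library at a time gave -0.92 to -0.56 for miR-29c-3p averaged and -1.33 to -0.60 in KO mice, called in both only without KO SCC replicate 2. In KO mice it gave -0.38 to 0.04 for miR-29a-3p (0.0345 without KO skin replicate 1 and 0.0376 without KO SCC replicate 3) and -0.43 to 0.26 for miR-29b-3p (above 0 without KO SCC replicate 3). Averaged over genotypes it gave 0.07 to 0.34 for miR-29a-3p and 0.07 to 0.57 for miR-29b-3p. Between KO and WT SCC the ranges were -1.04 to -0.51 for miR-29a-3p, -1.21 to -0.20 for miR-29b-3p and -0.87 to -0.14 for miR-29c-3p. For the interaction they were -0.97 to -0.44, -1.38 to -0.37 and -0.82 to -0.09. Between KO and WT skin it gave -0.25 to 0.14 for miR-29a-3p and -0.35 to 0.12 for miR-29c-3p. For miR-29a-3p minus miR-29b-3p it gave -0.25 to 0.0031.

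The count of all miRNAs called in WT mice was 62 with only the compared groups and 32 to 118 leaving out 1 library. Between KO and WT skin it was 22 with library quality weights and 0 to 2 leaving out 1 library. Between KO and WT SCC it was 0 with a filter of at least 6 libraries, 2 without trend or robust moderation, 0 with only the compared groups and 1 to 13 leaving out 1 library. For the interaction it was 0 to 11. The cause of these shifts was not tested. Leaving out a WT SCC library leaves 1, which is assumed to vary like the other groups. No paired analysis was possible because the labels give no replicate numbers. Depth is unknown, so precision rests on the number of libraries.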
